A study of Homo sapiens with 4 samples.

Results

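Polysome against sub-polysome RNA was compared in METTL3-WT cells to describe baseline ribosome loading. Of the 28198 genes with FPKM values, 10886 reached a mean of 1 FPKM across both METTL3-WT libraries and were kept, and for each the log2 ratio of polysome to sub-polysome FPKM was taken with 0.1 added to both. A positive ratio therefore means a larger share of the polysome library than of the sub-polysome library. The cells were MDA-MB-231, a human triple-negative breast cancer line, that had been depleted of METTL3 with a short hairpin RNA and reconstituted with wild-type METTL3 by lentivirus, so both libraries share the depletion, the transgene and the infection. They were grown in DMEM with serum, given cycloheximide (100 µg/mL, 5 min), which holds elongating ribosomes on their transcripts, and lysed onto 10 to 50% sucrose gradients. Fractions were pooled into a sub-polysome pool (40S, 60S and 80S) and a polysome pool, and poly(A)-selected RNA of each was sequenced. Both libraries are from replicate 2. With 1 library per fraction, no value below has a replicate error and none was tested; statements are limited to these 2 libraries.

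FPKM summed over genes to 899550 in the sub-polysome library and 818984 in the polysome library, with 16193 and 15870 genes above 0. Depth is not given with the values, and an estimate from the lowest non-zero values is about 26600000 and 26400000 fragments. FPKM is relative to the total of its library, so a shift shared by all transcripts between the pools, such as more or less RNA in polysomes, is removed and cannot be read from it. For the same reason, fewer transcripts of a gene in a pool and more of all others cannot be told apart.

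A translated mRNA carries several ribosomes at once and sediments according to their number, so heavy fractions hold mRNAs that initiate often or have room for many ribosomes, and light fractions hold mRNAs with 1 ribosome, with free subunits or with none. The length of the coding sequence sets how many ribosomes fit. Upstream reading frames in the 5′ leader, iron-responsive elements and 5′ terminal oligopyrimidine (TOP) tracts are known ways by which cells hold specific mRNAs in light fractions, and transcripts without a long reading frame are expected there too. Baseline loading is described below by gene class, by coding length and by function.

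METTL3, the catalytic subunit of the m6A methyltransferase complex and the reconstituted gene, was at 9.39 FPKM in the sub-polysome library and 38.7 FPKM in the polysome library. Its log2 ratio of 2.03 placed it at percentile 99.7 of all kept genes, and the standard error from counting alone was 0.07. METTL3 lies at chr14:21498133-21511342 on the minus strand of GRCh38, with 11 exons in the canonical transcript. The transcripts of the resident gene and of the lentiviral METTL3 are summed in these values and cannot be told apart, and an exon of TOX4 overlaps METTL3 on the other strand (TOX4 was at 11.3 and 13.6 FPKM, a log2 ratio of 0.26). The label of the cell line was compared with its markers. Mesenchymal markers were present in both libraries, with VIM at 677 and 1539 FPKM, CD44 at 110 and 133 FPKM and AXL at 158 and 194 FPKM, while SPARC was at 0.148 and 0.0403 FPKM; 11 of the 12 were kept, with a median ratio of 0.31. LGALS1 was the most abundant of them (4231 and 7499 FPKM, 0.83) and ZEB1 the lowest (4.76 and 2.32 FPKM, −1.01). The luminal and epithelial list was mixed. The hormone receptors ESR1 (0.00538 and 0 FPKM) and PGR (0 and 0.00621 FPKM) and the transcription factor FOXA1 (0.0118 and 0 FPKM) were at or near 0, and the epithelial cadherin CDH1 was at 0.248 and 0.219 FPKM. The receptor ERBB2 was at 12.2 and 24.3 FPKM and the adhesion molecule EPCAM at 6.53 and 9.91 FPKM. The keratins KRT8 (271 and 674 FPKM), KRT18 (316 and 719 FPKM) and KRT19 (548 and 1341 FPKM) were abundant, and 6 of the 10 luminal and epithelial markers were kept (median 1.09), GATA3 being the lowest of them (−0.73). Of the 8 blood and endothelial markers, CD14 alone passed the filter (24.9 and 51.5 FPKM). LYZ was at 1.19 and 0.726 FPKM, PECAM1 at 1.13 and 0.537 FPKM and KDR at 0.712 and 0.704 FPKM. CD3E was at 0 and PTPRC at 0.0341 and 0.0515 FPKM.

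The ratio was spread widely around a small positive median. The median of the 10886 kept genes was 0.14 on the log2 scale (95% interval 0.12 to 0.16, over genes only), the quartiles were −0.41 and 0.66, and the 1st and 99th percentiles were −2.43 and 1.79. At a 2-fold difference, 1355 genes (12.4%) were higher in the polysome library and 1065 (9.78%) were higher in the sub-polysome library. These shares are the background against which each group is read. The split depends on the scaling: with each library rescaled to TPM, which makes the library totals equal, it was 1856 against 923, and with the ratios centred on their median it was 978 against 1357. Rescaling to TPM adds 0.135 to the log2 ratio of a gene, apart from the effect of the added 0.1, and the filter was then applied to the TPM values, which kept 11178 genes. Over the genes kept on FPKM, an alternative added after seeing the data, the TPM split was 1822 against 877. The lower tail was longer than the upper one.

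**Figure D1:**
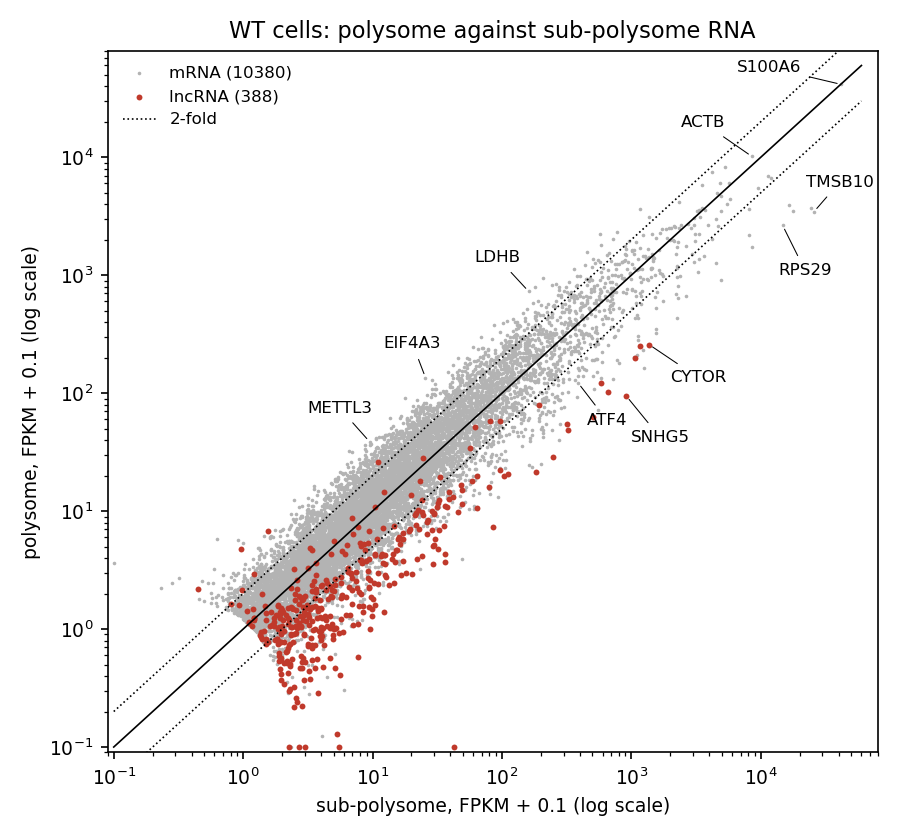
Polysome FPKM + 0.1 (vertical) against sub-polysome FPKM + 0.1 (horizontal), both on log scales, for kept mRNAs (grey) and lncRNAs (red) in METTL3-WT cells. The solid line marks equality and dotted lines 2-fold; most of the 388 lncRNAs lie under the lower dotted line, and TMSB10, RPS29 and ATF4 are mRNAs that do so too, while METTL3, EIF4A3 and LDHB lie above the upper one.

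The ratios differed between gene classes. The 10380 kept mRNAs had a median of 0.18, and 1345 of them were 2-fold or more above equality in polysomes and 734 as far below it. The 388 kept long noncoding RNAs (lncRNAs) had a median of −1.47, and 272 of them (70.1%) were at least 2-fold lower in polysomes against 7 higher. Only 25 lncRNAs were above 0. The 95 kept transcripts of the class misc_RNA, most of them named as pseudogenes, lay between, at −1.03, with 49 at least 2-fold lower and 2 higher. Together lncRNAs made up 1.31% of the sub-polysome FPKM and 0.350% of the polysome FPKM.

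**Figure D2:**
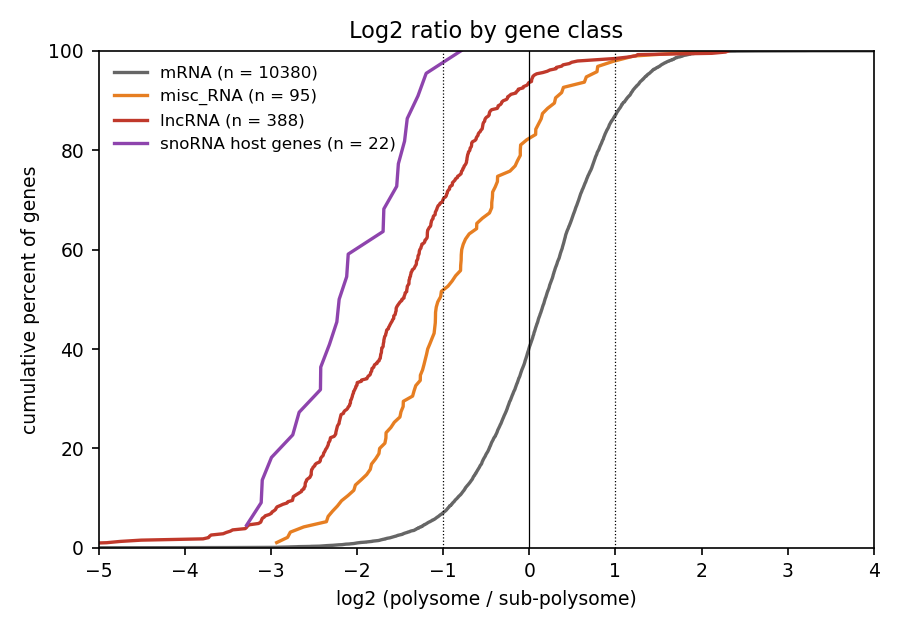
Cumulative percent of genes (vertical) by log2 ratio of polysome to sub-polysome FPKM (horizontal) for mRNAs, misc_RNA, lncRNAs and the 22 kept small nucleolar RNA host genes, with dotted lines at 2-fold. The lncRNA curve runs left of the mRNA curve over its whole middle part, with medians of −1.47 and 0.18; 3 lncRNAs lie left of the axis limit of −5.

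The difference between mRNAs and lncRNAs was present at each expression level. In the lowest decile of kept genes (means up to 1.75 FPKM), 108 lncRNAs had a median of −1.19 and 946 mRNAs one of 0.05. In the highest decile (means above 107 FPKM), the 11 lncRNAs were all at least 2-fold lower, with a median of −2.53, and the 1077 mRNAs had a median of 0.25. At a mean of at least 10 FPKM, 79 of 83 lncRNAs were below 0.

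Abundant lncRNAs included host genes of small nucleolar RNAs and transcripts known to be in the cytoplasm. Of 32 small nucleolar RNA host genes, whose introns hold the RNAs that guide modification of ribosomal RNA, 22 were kept, all were below 0 and 21 were at least 2-fold lower, with a median of −2.16. SNHG32 was at 1169 and 253 FPKM (−2.21) and GAS5, a host gene whose spliced RNA is known to bear a TOP tract, at 579 and 123 FPKM (−2.23). SNHG5 was at 917 and 94.1 FPKM (−3.28), SNHG19 at 250 and 28.8 FPKM (−3.11) and SNHG1 at 48.0 and 16.7 FPKM (−1.52). SNHG11, at 9.16 and 5.25 FPKM, was the single kept host gene inside the 2-fold line (−0.79). All 6 kept members of the list of cytoplasmic lncRNAs, which holds SNHG5 too, were at least 2-fold lower, among them CYTOR (1372 and 258 FPKM, −2.41) and NORAD (32.7 and 12.4 FPKM, −1.39), a decoy for PUMILIO proteins. The kept nuclear lncRNAs ranged from −1.41 to −0.32. NEAT1, the scaffold of paraspeckles, was at 16.0 and 5.98 FPKM (−1.41), MALAT1, a nuclear speckle RNA, at 1.69 and 1.22 FPKM (−0.44), and TUG1 at 5.67 and 4.52 FPKM (−0.32). Of 10 listed nuclear lncRNAs in the table, 5 were kept, with a median of −0.76 and 2 at least 2-fold lower.

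Intergenic and antisense lncRNAs gave the same picture at lower levels. Of 63 kept LINC genes, 44 were at least 2-fold lower and none higher (median −1.72), and of 132 kept antisense lncRNAs 96 were lower and 3 higher (median −1.47). LINC02585, at 42.1 FPKM in the sub-polysome library, was listed at 0 in the polysome library. MINCR was at 85.9 and 7.22 FPKM (−3.55) and LINC01088 at 36.0 and 3.63 FPKM (−3.27), the other 2 of the 5 lowest lncRNAs with a mean of at least 10 FPKM. IQCH-AS1 (5.20 and 0.0282 FPKM) had the lowest antisense value and LINC00294 (3.06 and 3.19 FPKM, 0.06) the highest LINC value. Several of the highest lncRNAs overlap an mRNA or are joined to one. VIM-AS1 was at 10.9 and 25.8 FPKM (1.24) and overlaps exons of VIM on the other strand (1.19). PCNA-AS1, at 0.859 and 4.67 FPKM, had the highest antisense value (2.32), next to PCNA at 1.596, and IER3-AS1, the most abundant antisense lncRNA, was at 81.1 and 58.3 FPKM (−0.48), next to IER3 at 0.08. The paper names a directional kit for the polysome libraries, but whether strand was used in the counting is not given. Reads of these genes and of their partners therefore cannot be told apart here. The same holds for mRNAs named below whose exons overlap another gene on the other strand, such as RPS29 (LRR1), DDIT3 (MARS1 and MBD6) and OAZ1 (JSRP1). Of the other 4 highest lncRNAs with a mean of at least 10 FPKM, SLMO2-ATP5E (0.24), IPO11-LRRC70 (0.04) and BLOC1S5-TXNDC5 (−0.25) bear names of readthrough transcripts that join 2 coding genes, and FLJ20021 was at 0.21.

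Among mRNAs, coding length went with the ratio, and most of the relation lay in short reading frames. Across 10287 mRNAs with a coding length, the ratio had a Pearson correlation of 0.27 and a Spearman correlation of 0.22 with it, over genes of the same 2 libraries. The 5 mRNAs under 50 codons were all at least 2-fold lower (median −2.39), and the medians were −1.22 for 70 mRNAs of 50 to 74 codons, −0.68 for 161 of 75 to 99 codons and −0.35 for 548 of 100 to 149 codons. The median was 0.18 in 3086 mRNAs of 200 to 399 codons, 0.27 in 4493 of 400 to 999 codons and 0.66 in 202 of at least 2000 codons, where 55 exceeded 2-fold in favour of polysomes and 2 in favour of the sub-polysome pool. From 170 codons upward the Spearman correlation was 0.12 (9255 mRNAs). mRNAs under 100 codons were 236 in number, with 110 at least 2-fold lower and 1 higher, and took 25.2% of the sub-polysome FPKM against 12.3% of the polysome FPKM.

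**Figure D3:**
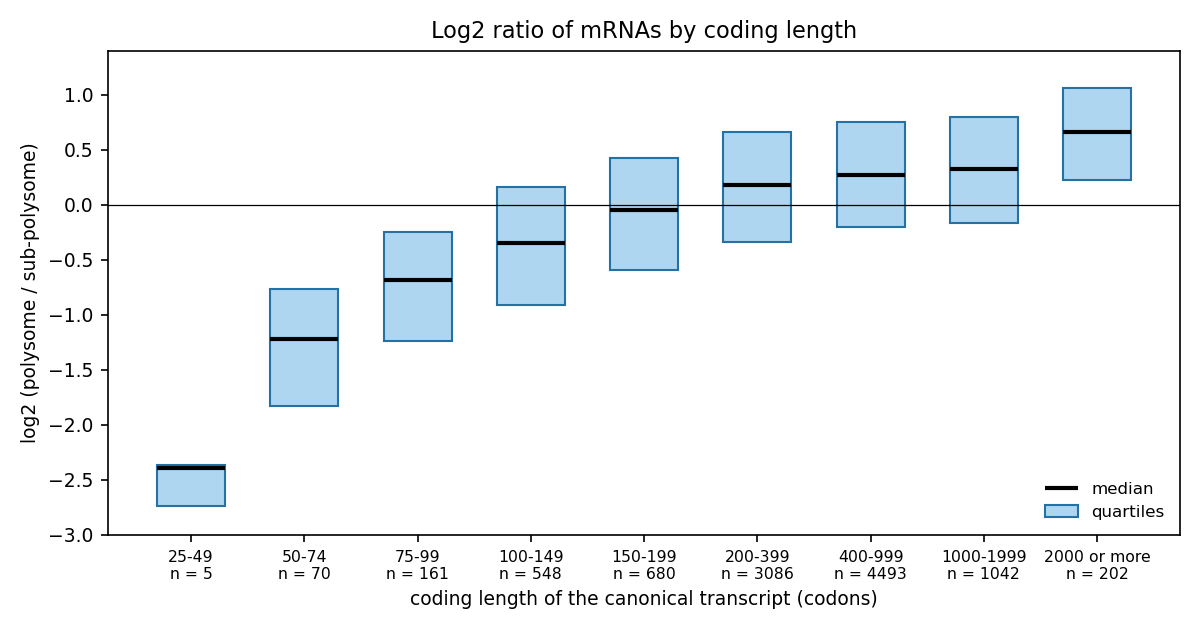
Median (black line) and quartiles (bars) of the log2 ratio of polysome to sub-polysome FPKM (vertical) for mRNAs in 9 bins of coding length in codons (horizontal), with the number of mRNAs under each bin. The medians go from −2.39 in the shortest bin, which holds only 5 mRNAs, to 0.66 in the longest, and are near 0 at 150 to 199 codons.

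Examples of very short reading frames are shown because they leave room for few ribosomes; they are 4 of the 5 mRNAs under 50 codons, and RPL39, which is just above that length. RPL41, a protein of the large ribosomal subunit, has 25 codons. OST4, a subunit of the oligosaccharyltransferase, has 37, the thymosins TMSB10 and TMSB4X, which bind actin monomers, have 44 each, and RPL39, at the ribosome's exit tunnel, has 51. The reading frames, from GENCODE 44 on GRCh38, are given with the start and stop codons in capitals; the gene intervals are chr12:56116590-56117967 (+) for RPL41, chr2:27070472-27071654 (−) for OST4, chr2:84905656-84906671 (+) for TMSB10, chrX:12975110-12977227 (+) for TMSB4X and chrX:119786504-119791630 (−) for RPL39.
RPL41: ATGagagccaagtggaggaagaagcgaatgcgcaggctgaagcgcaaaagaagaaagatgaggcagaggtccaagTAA
OST4: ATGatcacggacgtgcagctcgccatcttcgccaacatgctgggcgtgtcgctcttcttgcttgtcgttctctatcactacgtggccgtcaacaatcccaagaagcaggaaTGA
TMSB10: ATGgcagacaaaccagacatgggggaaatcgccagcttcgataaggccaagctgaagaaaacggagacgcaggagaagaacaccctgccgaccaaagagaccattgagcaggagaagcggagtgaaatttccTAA
TMSB4X: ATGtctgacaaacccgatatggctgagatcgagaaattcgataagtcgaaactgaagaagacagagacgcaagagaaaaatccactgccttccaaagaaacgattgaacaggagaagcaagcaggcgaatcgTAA
RPL39: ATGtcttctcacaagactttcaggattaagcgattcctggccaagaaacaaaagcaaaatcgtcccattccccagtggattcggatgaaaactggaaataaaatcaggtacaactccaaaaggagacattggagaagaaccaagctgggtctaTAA

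The remaining mRNA under 50 codons, STMP1 (47 codons), was at 17.0 and 8.26 FPKM (−1.04), the nearest to equality of that bin. The ratios of the mRNAs shown were lower than that. TMSB10 was at 25821 and 3461 FPKM (−2.90) and TMSB4X at 24503 and 3683 FPKM (−2.73), which made them the most abundant genes of the sub-polysome library after S100A6. RPL41 was at 2234 and 434 FPKM (−2.36), OST4 at 1226 and 234 FPKM (−2.39) and RPL39 at 8090 and 2173 FPKM (−1.90). Thymosins, ribosomal proteins and ferritins have near-identical copies in the genome, so their reads may have been split or shared between copies. Not every short mRNA was low: S100A6, a calcium-binding protein and the most abundant mRNA of both libraries, was at 41855 and 41473 FPKM (−0.01). Of 19 S100 genes 10 were kept, and none differed by 2-fold (median −0.40, from S100A16 at −0.75 to S100A11 at 0.36). After subtraction of the median of all mRNAs in the same decile of coding length, their median was 0.04. The shortest decile is wide (25 to 169 codons, median −0.44). The S100 genes had a median of 98 codons, and all mRNAs of 75 to 99 codons had a lower median (−0.68).

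Ribosomal protein mRNAs were lower in polysomes than other mRNAs. Of the 79 kept genes, 60 were below 0 and 16 were at least 2-fold lower, none was at least 2-fold higher, and they took 26.0% of the sub-polysome FPKM and 17.4% of the polysome FPKM. The 47 large-subunit genes had a median of −0.53 (9 at least 2-fold lower) and the 32 small-subunit genes one of −0.52 (7 lower). The lowest was RPS29 at 14775 and 2640 FPKM (−2.48), RPS12 was at 4918 and 915 FPKM (−2.43) and RPS21, the most abundant small-subunit mRNA, at 16542 and 3925 FPKM (−2.08). RPL35 was the most abundant large-subunit mRNA (11443 and 6996 FPKM, −0.71). At the other end, RPL15 was at 664 and 973 FPKM (0.55) and RPS27A, which encodes ubiquitin fused to a ribosomal protein, at 939 and 1288 FPKM (0.46).

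The ratio also went with coding length within the family. Across the 79 ribosomal protein mRNAs, the ratio had a Spearman correlation of 0.58 with the number of codons. The 5 with under 75 codons had a median of −1.90, against −1.22 in other mRNAs of that length. For 75 to 119 codons the medians were −1.02 (13 genes) and −0.58, for 120 to 179 codons −0.55 (33 genes) and −0.12, and from 180 codons −0.01 (28 genes) and 0.23. The ribosomal protein median was the lower one in each of the 4 bins, but the share at least 2-fold lower was not. It was 12.1% against 17.6% of other mRNAs at 120 to 179 codons and 3.57% against 5.24% from 180 codons, bins that hold most of the family. After subtraction of the median of all mRNAs in the same decile of coding length, the median of the 79 genes was −0.16. With matching on transcript length instead, the medians were −0.53 for the large-subunit and −0.48 for the small-subunit genes, close to those without matching.

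TOP tracts were then read from the 5′ ends. A tract was taken as a C at the first base of the canonical transcript followed by at least 4 pyrimidines, and 593 mRNAs (5.76%) had one, among them 60 of the 79 ribosomal protein mRNAs (75.9%). The first 20 bases are shown for members at both ends of the ratio, with the tract in capitals.
RPS29: CTTCCTTTTacctcgttgca
RPS12: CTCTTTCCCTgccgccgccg
RPSA: CTTTTCCgtgctacctgcag
RPL15: gggagtacagctctttcctt
EEF1A1: CTTTTTCgcaacgggtttgc
EEF2: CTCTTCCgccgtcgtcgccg
TPT1: CTTTTCCgcccgctcccccc
HNRNPA1: agatacgttcgtcagcttgc
They lie at chr14:49586361-49586380 (−), chr6:132814569-132814588 (+), chr3:39406720-39406739 (+), chr3:23917132-23917151 (+), chr6:73521013-73521032 (−), chr19:3985444-3985463 (−), chr13:45341164-45341183 (−) and chr12:54280726-54280745 (+), in this order. Annotated starts can differ from the starts used in these cells, so a missing tract, as in RPL15 and HNRNPA1, says only that these letters do not open this transcript.

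mRNAs with a tract had lower medians than those without one, by more among ribosomal proteins. Ribosomal protein mRNAs with a tract had a median of −0.57 (60 genes, 15 at least 2-fold lower) and those without one −0.11 (19 genes, 1 lower). Those with a tract were also shorter (median 147 against 184 codons), and at matched coding length the medians were −0.27 and −0.04. The 533 other mRNAs with a tract had a median of 0.10, with 54 at least 2-fold higher (10.1%) and 48 lower (9.01%). The 9675 mRNAs with neither had a median of 0.20, with 13.2% higher and 6.80% lower. Both pairs of shares are near those of all kept genes (12.4% and 9.78%). At matched coding length the medians were −0.07 with a tract and 0.01 with neither. RPSA, with a tract of 7 pyrimidines, was at 1220 and 1469 FPKM (0.27), on the other side of 0 from RPS29.

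Elongation factors and other mRNAs known to carry TOP tracts were mostly near equality, with a median of 0.21 over 18 genes. EEF1A1, which brings aminoacyl-tRNA to the ribosome, was at 2011 and 2531 FPKM (0.33) and EEF2, the translocase, at 244 and 296 FPKM (0.28). PABPC1, the poly(A)-binding protein, was at 234 and 68.9 FPKM (−1.76) and TPT1, the translationally controlled tumor protein, at 265 and 94.5 FPKM (−1.49); they were the 2 members at least 2-fold lower. HNRNPA1, a splicing factor, was the one member at least 2-fold higher (256 and 533 FPKM, 1.06).

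Initiation factors and aminoacyl-tRNA synthetases were higher in polysomes than most genes. Of 38 kept initiation factors, 14 were at least 2-fold higher and none lower, with a median of 0.54. EIF4A3, an RNA helicase of the exon junction complex that shares its name with the initiation helicases, had the highest ratio of all mRNAs with a mean of at least 10 FPKM (25.5 and 136 FPKM, 2.40). EIF3M was at 1.72, EIF3D at 1.65, EIF3B at 1.59 and EIF3H at 0.51 (48.7 and 69.3 FPKM), all subunits of the eIF3 scaffold. EIF4G2, a relative of eIF4G that lacks the site for the cap-binding protein eIF4E, was the lowest (118 and 76.5 FPKM, −0.63). EIF5A, counted as an initiation factor by its name only, was the most abundant of the list (1284 and 1442 FPKM, 0.17). All 20 cytoplasmic synthetases, which charge tRNAs, were above 0 and 12 were at least 2-fold higher (median 1.05). They ranged from FARSB at 5.78 and 7.15 FPKM (0.30) to RARS1 at 16.5 and 63.7 FPKM (1.94), and FARSA was the most abundant (129 and 269 FPKM, 1.06).

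Cytosolic chaperones and proteasome subunits had the highest list medians. Of 37 kept proteasome subunits, 26 were at least 2-fold higher (70.3%, against 12.4% of all kept genes) and none lower, with a median of 1.28. PSMA5 was at 17.6 and 90.3 FPKM (2.36), PSMC6 at 13.6 and 61.4 FPKM (2.17) and PSMB1 at 181 and 801 FPKM (2.15), and all 3 were among the 10 highest of the mRNAs with a mean of at least 10 FPKM. PSMB4, the most abundant, was at 523 and 1271 FPKM (1.28). PSMD5, a chaperone of the base of the regulatory particle, was the one member below 0 (9.45 and 6.67 FPKM, −0.50). Of 19 cytosolic chaperones and chaperonin subunits, all were above 0 and 14 were at least 2-fold higher (median 1.29). The chaperonin subunit CCT2 led with 41.9 and 174 FPKM (2.05). HSPA8 was at 145 and 480 FPKM (1.73) and HSP90AB1 at 400 and 978 FPKM (1.29), and the small heat shock protein HSPB1 (709 and 998 FPKM, 0.49) and the co-chaperone DNAJB1 (0.43) were nearer to the median of all genes.

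Glycolytic enzymes were similar. Their median was 1.20, none of the 17 was below 0, and 11 were at least 2-fold higher. LDHB, a lactate dehydrogenase subunit, was at 161 and 730 FPKM (2.18), PGK1 at 59.3 and 245 FPKM (2.05) and ENO1 at 1171 and 3617 FPKM (1.63). GAPDH, the most abundant, was at 3514 and 5785 FPKM (0.72). HK2, which phosphorylates glucose, was near equality (12.01 and 12.48 FPKM, 0.06). Of 20 genes of cholesterol synthesis, 6 were at least 2-fold higher and none lower (median 0.58), with LSS, lanosterol synthase, at 1.85, FDPS at 97.0 and 331 FPKM (1.77), and INSIG1, which retains the sterol sensor in the endoplasmic reticulum, at −0.66. At matched coding length the medians were 1.06 for proteasome subunits, 1.02 for cytosolic chaperones, 0.95 for glycolytic enzymes and 0.69 for the synthetases.

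Replication and mitosis genes were high as well, at a median of 1.11 with 14 of 23 at least 2-fold higher and none lower. CCNB1, cyclin B1, was at 45.6 and 200 FPKM (2.13), the replicative helicase subunit MCM7 at 42.1 and 133 FPKM (1.66) and the sliding clamp PCNA at 67.4 and 204 FPKM (1.596). TYMS, thymidylate synthase, was at 90.7 and 201 FPKM (1.15), and TOP2A alone was below 0 (20.1 and 17.7 FPKM, −0.18). The cytoskeletal list had a median of 1.04 with 11 of 21 at least 2-fold higher. TUBA1C was at 209 and 956 FPKM (2.19) and TUBA1B at 576 and 2239 FPKM (1.96), but the α-tubulin genes are near-identical in sequence and their values are uncertain. ACTB, β-actin, was at 8538 and 10167 FPKM (0.25). The only 2 members at least 2-fold lower were the thymosins described above. Among 29 splicing factors of the hnRNP and SR families 12 were at least 2-fold higher and none lower (median 0.92), from HNRNPUL1 at 94.4 and 75.5 FPKM (−0.32) to HNRNPM at 51.8 and 179 FPKM (1.78), and the most abundant was SRSF9 (368 and 493 FPKM, 0.42). Motor proteins were different: 34 kept kinesins and cytoplasmic dynein genes had a median of −0.01, with 7 higher and 1 lower. The dynein heavy chain DYNC1H1 was at 7.85 and 17.4 FPKM (1.14), the intermediate chain DYNC1I2 at 1.87, the abundant light chain DYNLL1 at 1086 and 583 FPKM (−0.90) and KIF9 at −1.21.

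**Figure D4:**
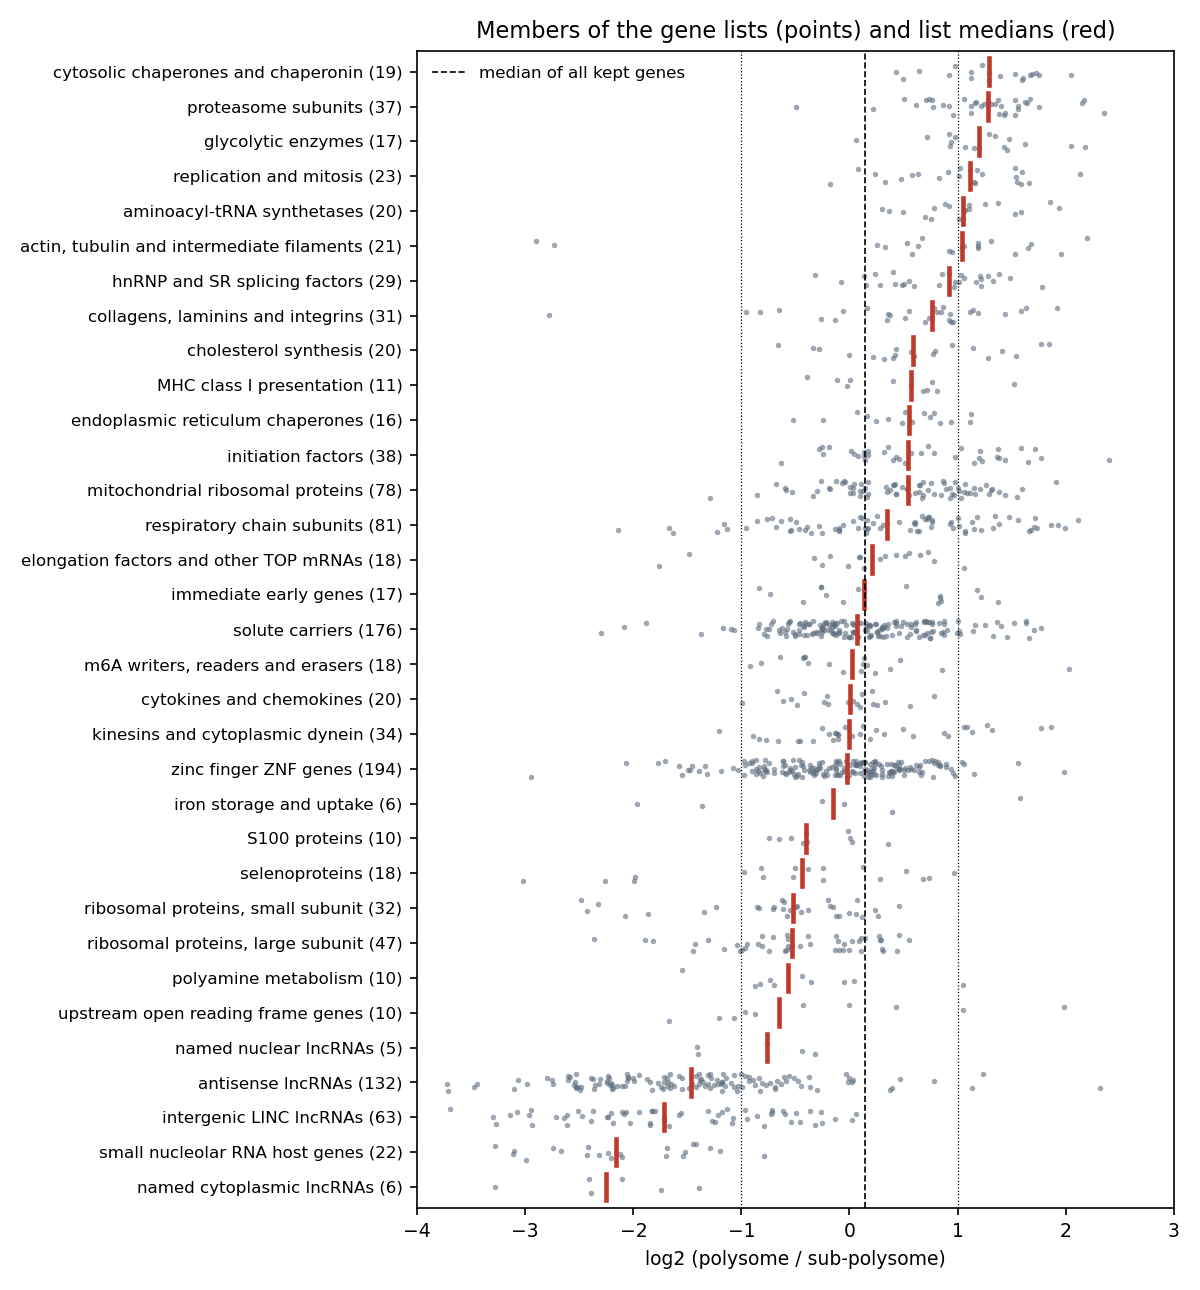
Log2 ratio of polysome to sub-polysome FPKM (horizontal) for every kept member (points) of 33 gene lists, ordered by list median (red marks), with the number of kept members in brackets; the dashed line is the median of all kept genes (0.14) and dotted lines mark 2-fold. Cytosolic chaperones, proteasome subunits and glycolytic enzymes have medians of 1.20 to 1.29, and the lncRNA lists lie at the bottom. The 2 lncRNAs left of the axis limit of −4 are not drawn.

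Nuclear genes for mitochondrial proteins covered a wide range. Of 78 mitochondrial ribosomal proteins, 19 were at least 2-fold higher and 1 lower (median 0.54), from MRPL33, with 743 and 304 FPKM (−1.29), to MRPL39, with 16.2 and 61.2 FPKM (1.91), and MRPL41 was the most abundant (918 and 766 FPKM, −0.26). Of 81 kept subunits of the respiratory chain and ATP synthase, 22 were higher and 6 lower (median 0.35). ATP5F1A (86.9 and 377 FPKM, 2.12), ATP5F1B (174 and 582 FPKM, 1.74) and SDHA (30.0 and 109 FPKM, 1.86) were high. The small subunits UQCRH (91 codons, 1552 and 352 FPKM, −2.14) and ATP5ME (69 codons, 2219 and 697 FPKM, −1.67) were low, and COX8A, the most abundant, was at 3125 and 1946 FPKM (−0.68). At matched coding length, the medians of the lists were 0.61 and 0.72, and with matching on transcript length they were 0.30 and 0.47. No mitochondrially encoded gene was in the table.

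Endoplasmic reticulum chaperones, matrix and integrin genes and antigen presentation genes had list medians of 0.55 to 0.77, above that of all kept genes (0.14). Of 16 chaperones of the endoplasmic reticulum, 2 were at least 2-fold higher and none lower (median 0.55), among them PDIA3 (60.9 and 133 FPKM, 1.13), while CALR was at 1057 and 1508 FPKM (0.51) and SDF2L1 was the lowest (−0.52). Of 83 collagens, laminins and integrins only 31 were kept, with 7 higher, 1 lower and a median of 0.77. At matched coding length their median was 0.39. LAMB3, a laminin chain of basement membranes, was at 109 and 411 FPKM (1.92) and the integrin ITGAE at 8.16 and 1.104 FPKM (−2.78), whose exons overlap HASPIN on the other strand, so its value is uncertain. Antigen presentation genes had a median of 0.57 over 11 genes, with TAP2, a peptide transporter, at 14.5 and 41.8 FPKM (1.52), B2M at 1648 and 1625 FPKM (−0.02) and ERAP1 at −0.39.

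Cytokines and chemokines stayed close to equality. None of the 20 differed by 2-fold or more with 0.1 added to both values, and their median was 0.01. CXCL8 was at 432 and 377 FPKM (−0.20) and IL6, an inflammatory cytokine, at 174 and 186 FPKM (0.10). IL1B was the highest at 39.7 and 68.3 FPKM (0.78) and CXCL3 the lowest at 18.8 and 9.39 FPKM (−0.996, inside 2-fold only with the added 0.1). Of 380 solute carriers 176 were kept (median 0.07, 16 higher and 7 lower), with the lactate exporter SLC16A3 the most abundant (502 and 1380 FPKM, 1.46), SLC38A10 the highest (1.77) and the mitochondrial carrier SLC25A51 the lowest (8.19 and 1.59 FPKM, −2.30). The medians of cytokines, solute carriers, motor proteins, ZNF genes and m6A genes are so near 0 that their sign turns with the scaling: they are 0.14, 0.20, 0.12, 0.15 and 0.15 with TPM and −0.14, −0.08, −0.15, −0.17 and −0.12 with centred ratios. The median of the immediate early genes, described below, was 0.27 with TPM and −0.01 with centred ratios. Single ratios smaller than these shifts turn sign in the same way. At matched coding length the median was −0.0017 for cytokines and −0.20 for solute carriers. It was −0.26 for motor proteins, −0.29 for ZNF genes and −0.30 for m6A genes.

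Among genes known for translational control, ATF4, FTL and OAZ1 were each the most abundant and the lowest of their list. ATF4, the transcription factor of the integrated stress response whose upstream reading frames restrict its translation in unstressed cells, was at 388 and 122 FPKM (−1.67). DDIT3, its target CHOP, was at 42.1 and 19.96 FPKM (−1.07). Of the 10 genes of the list with known upstream reading frames, 3 were at least 2-fold lower and 2 higher (median −0.65). The third lower one was ATF5 (29.2 and 12.6 FPKM, −1.21), and PPP1R15A, a phosphatase subunit that ends the stress response, was at 89.2 and 45.7 FPKM (−0.96). The higher ones were EPRS1 (1.05) and ZNF622 (10.5 and 41.9 FPKM, 1.99). The ferritin chains, which bear an iron-responsive element in the 5′ leader, were low, with FTL at 2628 and 673 FPKM (−1.97) and FTH1 at 1124 and 436 FPKM (−1.37). The transferrin receptor TFRC, whose elements lie after the coding sequence and act on stability, was near equality at 31.6 and 30.4 FPKM (−0.05). ACO1, which as iron regulatory protein binds these elements, was high at 11.8 and 35.4 FPKM (1.57). In polyamine metabolism, the median was −0.57 and 8 of 10 genes were below 0, as were 4647 of the 10886 kept genes. Only 1 was at least 2-fold lower and 1 higher, which is near the background. OAZ1, the antizyme that is made by a polyamine-dependent frameshift, was at 1768 and 604 FPKM (−1.55), AMD1, with an upstream reading frame, at 21.0 and 12.9 FPKM (−0.70), and ODC1, the enzyme that antizyme targets, at 67.0 and 64.7 FPKM (−0.05). PAOX was the highest (11.9 and 24.8 FPKM, 1.05).

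Selenoprotein mRNAs, which recode a UGA codon as selenocysteine, had a median of −0.44 over 18 kept genes, with 4 at least 2-fold lower and none higher. SELENOW was at 201 and 24.8 FPKM (−3.02), the peroxidases GPX1 at 1562 and 326 FPKM (−2.26) and GPX4 at 1117 and 281 FPKM (−1.99), and SELENOH at 142 and 35.7 FPKM (−1.99). SELENOO was the highest (21.0 and 41.1 FPKM, 0.97). At matched coding length the median was −0.47.

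The number of ATG triplets before the start codon went with lower ratios across all mRNAs. The 6419 mRNAs without one had a median of 0.32, and mRNAs with 1, 2, 3 and at least 4 had medians of 0.06 (1897 genes), −0.06 (872), −0.10 (430) and −0.19 (669). The Spearman correlation was −0.22, and −0.28 after the median of each decile of coding length was subtracted. Leader length went with the ratio too (−0.16), and longer leaders hold more ATG triplets. Within each quintile of leader length the median was lower in mRNAs with an upstream ATG, by the least in the shortest leaders (0.25 against 0.33) and clearly in leaders of 54 to 100 bases (0.04 against 0.34) and of 284 bases or more (−0.08 against 0.15). ATF4 and DDIT3 have 3 each in their canonical transcripts. ZNF622, the highest of the listed genes with known upstream reading frames, has 0. The length of the 3′ untranslated region had a Spearman correlation of −0.19 with the ratio.

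**Figure D5:**
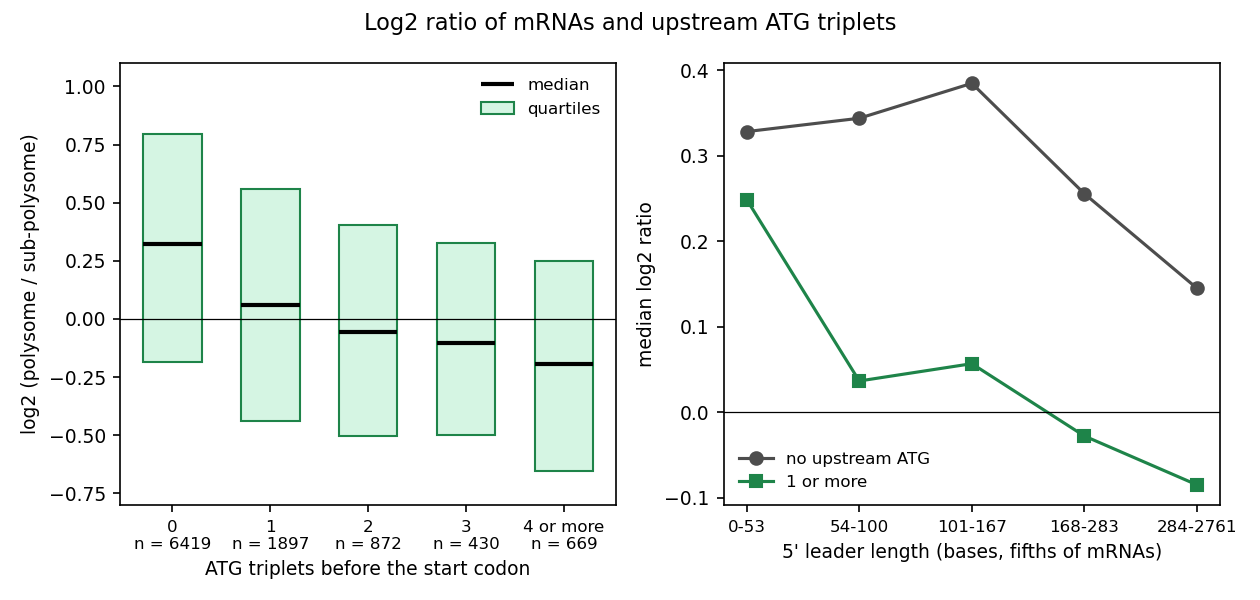
Left, median (black line) and quartiles (bars) of the log2 ratio of polysome to sub-polysome FPKM by the number of ATG triplets before the start codon. Right, median log2 ratio by quintile of 5′ leader length in bases for mRNAs without (circles) and with (squares) an upstream ATG; the medians without one go from 0.33 to 0.15 and those with one from 0.25 to −0.08.

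Lists of regulators of transcription and of RNA modification had medians near equality, with single members well away from it on both sides. MYC, the growth-promoting transcription factor, was at 16.3 and 37.1 FPKM (1.18) and JUN, a subunit of AP-1, at 34.2 and 60.3 FPKM (0.82). Of 17 kept immediate early genes, 3 were at least 2-fold higher and none lower (median 0.13), from JUND (1195 and 667 FPKM, −0.84) to IER5 (26.4 and 68.5 FPKM, 1.37), and IER3 was by far the most abundant (3499 and 3691 FPKM, 0.08). Of 478 ZNF genes 194 were kept, with 5 higher, 15 lower and a median of −0.03, from ZNF429 (2.13 and 0.188 FPKM) to ZNF622. ZNF593, the most abundant, was at 341 and 222 FPKM (−0.62). Among 18 kept m6A writers, readers and erasers METTL3 alone was at least 2-fold different. Its partner METTL14 was at 2.8 and 3.1 FPKM (0.12), the adaptor WTAP at 29.2 and 22.0 FPKM (−0.41) and the demethylase ALKBH5, the most abundant and the lowest, at 88.5 and 46.6 FPKM (−0.92). PTPN14, a phosphatase, was at 6.38 and 6.71 FPKM (0.07), LPP, a focal adhesion protein, at 2.09 and 2.25 FPKM (0.11) and CAV1, the coat protein of caveolae, at 88.6 and 110 FPKM (0.31).

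The extremes were taken among the 5255 mRNAs with a mean of at least 10 FPKM. Of the 10 lowest, CMC4 (68 codons), SELENOW (87), COPS9 (57), PPDPF (114), TMSB10 (44), PKIG (76) and TMSB4X (44) have short coding sequences. CMC4, a mitochondrial protein, had the lowest ratio at 49.0 and 3.85 FPKM (−3.64) and shares exons with MTCP1, so its value is uncertain. COPS9, a small subunit of the COP9 signalosome, was at 553 and 72.1 FPKM (−2.94), PPDPF at 1249 and 163 FPKM (−2.93) and PKIG, an inhibitor of protein kinase A, at 169 and 23.7 FPKM (−2.83). The others include 2 with long coding sequences, MAP3K13, a kinase of 966 codons with 5 upstream ATG triplets (23.2 and 3.10 FPKM, −2.86), and AP1M2, an adaptor subunit of 423 codons (93.0 and 13.1 FPKM, −2.82). MAP3K13 and PKIG overlap exons of TMEM41A and ADA on the other strand, which leaves their values uncertain too. C9orf16 was at 278 and 40.1 FPKM (−2.79). Of the 10 highest, 3 were proteasome subunits, and EIF4A3, LDHB, TUBA1C and CCNB1 belong to lists described above. The remaining ones were HPS6, a lysosome-related organelle protein of a single exon (6.46 and 32.2 FPKM, 2.30), RBBP7, a histone-binding protein (28.6 and 128 FPKM, 2.16, with exons that overlap TXLNG on the other strand), and LOC112694756 (6.89 and 31.5 FPKM, 2.18).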

How the data were processed

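The authors deposited 1 table of gene FPKM values for their polysome libraries (fragments per kilobase scaled by library size), without counts. The submitters' processing notes name STAR 2.7, StringTie 2.1.5 and hg38; the annotation is not given in the sources used here. Values of the 2 METTL3-WT columns were used as deposited; 4 more value columns, whose names carry the number 1 (probably replicate 1), correspond to none of the samples and were not analysed here, and the METTL3-K177Q columns were not part of the comparison. A mean of 1 FPKM or more was required, and the log2 ratio was taken with a pseudocount of 0.1, which understates differences of low genes. A gene counted as higher or lower at 2-fold. There was no test. Medians have binomial order-statistic intervals (95%) over genes.

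Coding lengths, leaders and 5′ ends came from GENCODE 44 (GRCh38, canonical transcripts, matched by symbol), and 99.1% of kept mRNAs had a coding length. Matching on coding length subtracted the median of all mRNAs in the same 1 of 10 length classes; the shortest class is wide (25 to 169 codons). Depth was estimated from the cluster of lowest values of FPKM times transcript length, limits chosen after looking at the values; counting errors from it cover counting only.

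The members and the 36 gene lists were chosen with earlier results of these data known. Named genes are METTL3, landmark genes listed by name, the 10 highest and 10 lowest mRNAs and 5 highest and 5 lowest lncRNAs with a mean of at least 10 FPKM, and the most abundant, highest and lowest member of each list; others were named after their values were seen. Some genes that the rule names are not reported here. The calculation was tested on simulated data. Tools were Python 3.11.15 with numpy 2.4.6, pandas 2.3.3, matplotlib 3.10.9 and scipy 1.17.1.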

Additional observations from a re-analysis of the deposited data

How the results depend on the processing

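Only 1 library per fraction was matched to a sample and used, so no paired analysis was run and no library could be left out. Of 403 summary values under the alternatives, 355 stayed within the interval of the main median (or within 1.5 times a count) and 48 did not. The intervals of small lists are wide, so some of the 355 lay far from the main value: iron genes went from −0.16 to −0.71 and nuclear lncRNAs from −0.76 to −1.41 at a mean of at least 10 FPKM, and luminal markers from 1.09 to 0.34 without a filter. The sign changed in 14 summary values, 12 of them among 315 list medians, and in none whose main value was at least 2-fold. Of 1222 values of named genes, 298 moved by at least 0.1 on the log2 scale. Part of this count is fixed by the settings. Apart from the added 0.1, TPM shifts every ratio by 0.135 and centring shifts it by the median of all genes (0.14). A change of filter cannot move the ratio of a single kept gene. The count is therefore no measure of how stable single ratios are. The sign changed in 11 genes, all with main ratios of at most 0.106 in size. The count of genes higher in polysomes was 898 at a mean of at least 10 FPKM and 3063 at 1.5-fold. The count of genes lower was 1764 at a mean of at least 0.1 FPKM, 1924 without a filter, 461 at a mean of at least 10 FPKM and 2070 at 1.5-fold. With a pseudocount of 1, the medians were 0.12 for all genes, 0.16 for mRNAs, −1.10 for lncRNAs, −0.68 for misc_RNA, −1.10 for LINC genes and −1.11 for antisense lncRNAs. At a mean of at least 0.1 FPKM, they were 0.0727 for all genes, 0.14 for mRNAs and −1.23 for lncRNAs. Without a filter, they were 0.0384 for all genes, 0.11 for mRNAs, −0.72 for lncRNAs, −0.37 for misc_RNA, −0.81 for LINC genes, −0.93 for antisense lncRNAs and 0.35 for collagens, laminins and integrins. At a mean of at least 10 FPKM, they were 0.28 for all genes, 0.29 for mRNAs, −1.70 for lncRNAs, −2.37 for LINC genes, −2.05 for antisense lncRNAs, 0.26 for solute carriers and −0.48 for ZNF genes. At 1 FPKM in both libraries, lncRNAs were at −1.29 and antisense lncRNAs at −1.29. With TPM, the medians were 0.27 for all genes, 0.31 for mRNAs, −1.31 for lncRNAs, 0.20 for solute carriers and 0.15 for ZNF genes. With totals set equal without ribosomal protein genes, they were 0.12 for all genes and 0.16 for mRNAs. With centred ratios, they were 0 for all genes, 0.0385 for mRNAs, −1.61 for lncRNAs, −0.0776 for solute carriers and −0.17 for ZNF genes. When matched on transcript length instead of coding length, the large-subunit ribosomal proteins were at −0.53. Mitochondrial ribosomal proteins were at 0.30 and respiratory chain subunits at 0.47. Collagens, laminins and integrins were at 0.64, against 0.39 with coding length, and S100 proteins at −0.35 against 0.04. Immediate early genes went from 0.48 with coding length to −0.21 with transcript length. The cause was not tested. Depth is known only by estimate.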

Other observations

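Groups other than the lists above were looked at after the values were seen, without a test. The metallothioneins, small proteins that bind zinc and copper, were all low: the 5 kept of 9 had a median of −2.40 and each was at least 2-fold lower in polysomes. MT2A, among the most abundant mRNAs of the sub-polysome library, was at 17910 and 3491 FPKM, and MT1X was at 781 and 190 FPKM. Their coding sequences are short (61 codons in both), and their sequences are alike, so single members are uncertain. Small integral membrane genes named SMIM had a median of −1.04, and −0.65 at matched coding length, with 8 of 15 at least 2-fold lower. Their median coding length was 84.5 codons, and the class used for matching is wide. Of all mRNAs of 75 to 99 codons, 37.9% were at least 2-fold lower (median −0.68). The share was 62.9% at 50 to 74 codons (median −1.22). Mitochondrial import subunits had a median of −0.21, and −0.05 at matched coding length, with 6 of 24 lower and 1 higher; the lower ones included the small TOMM6 (1539 and 532 FPKM) and TOMM7 (838 and 369 FPKM). Genes named as Sm and LSm proteins, only some of which form the core of spliceosomal particles, had a median of −0.38 over 19 genes. At matched coding length it was −0.06, and 2 genes were higher and 3 lower, near the background. The 6 kept HOX genes had a median of −0.68, with 2 lower.

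Cathepsins, vacuolar ATPase subunits and DEAD box helicases had medians above that of all genes. The cathepsins, proteases of lysosomes, had a median of 0.65 over 10 kept genes (0.38 at matched coding length), 1 of them at least 2-fold higher. CTSD was at 772 and 1241 FPKM and CTSL at 53.2 and 120 FPKM. Subunits of the vacuolar ATPase had a median of 0.61 over 18 genes (0.53 at matched coding length), with 3 at least 2-fold higher and 6 below 0. These counts are near the background of 12.4%. DEAD box helicases had a median of 0.68, and 0.41 at matched coding length, with 11 of 33 at least 2-fold higher and 2 lower. DDX6, a factor of translational repression and decay, was 1 of the 2 lower ones (12.4 and 5.37 FPKM), and DDX1 was the highest (13.9 and 44.9 FPKM). Ubiquitin-specific proteases were centred near 0, at 0.03 over 38 genes, and at −0.27 at matched coding length. RMRP, the RNA of RNase MRP, was at 12.5 FPKM in the sub-polysome library and listed at 0 in the polysome library, and RPPH1, the RNA of RNase P, was at 18.8 and 5.26 FPKM.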
